A study of Mus musculus with 33 samples.

Results

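The Hox cluster genes were all rows of the 4 deposited expression tables whose symbol was Hox followed by the cluster letter a, b, c or d and a paralog number. The rule found 38 genes of the 38899 that the 4 tables share: 11 of cluster A, 10 of cluster B, 9 of cluster C and 8 of cluster D. They were followed across 33 libraries of sorted or unsorted bone marrow cells from C57BL/6 mice aged 8 to 12 weeks, in 11 groups of 3 libraries. Nothing in the labels says that replicates came from separate mice, so p-values measure the spread between these libraries.

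The blood groups came from untreated wildtype femur and tibia: unsorted marrow (BMC), cells depleted of lineage markers (Lin-) and the stem and progenitor fraction Lin-Sca1+cKit+ (LSK). The 8 endothelial cell (EC) groups were GFP+ cells, and those of the 9Gy1D and Esm1+ groups are labelled Tomato+/GFP+. Bone EC, irradiated bone EC (9 Gy) and 9Gy1D EC (9 Gy) carried the Cdh5-mTnG reporter, in which the endothelial cadherin gene Cdh5 drives the label. Diaphysis EC carried the same reporter, without treatment, and came from the femoral shaft alone. Vav1 control EC and Vav1 DTX EC share their labels for treatment (diphtheria toxin) and genotype (Vav1-Cre R26-DTR Cdh5-mTnG). Only the titles (ctrl and DTX) and the column names (Vav1-Cont and Vav1-Cre) set them apart. The column names give Cre to the DTX group alone and the genotype label to both, so whether the controls carried Cre is not settled. Vav1 drives Cre in blood cells, where DTR is the diphtheria toxin receptor. Apln+ EC came from tamoxifen-treated Apln-CreERT2 R26-mTmG mice and Esm1+ EC from tamoxifen-treated Esm1-CreER R26-mTmG mice, so that cells of these groups were marked through the Apln or Esm1 gene. The Apln+ and diaphysis groups, and the 9Gy1D and Esm1+ groups, therefore differ in genotype and treatment together, and these cannot be told apart. For Apln+ against diaphysis EC, the restriction of diaphysis EC to the femoral shaft cannot be told apart from them either.

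Hox genes encode homeodomain transcription factors that give cells their position along the body axis. Their order along each cluster follows their order of use, so low paralog numbers are called anterior and high numbers posterior. In blood formation the posterior HoxA genes Hoxa9 and Hoxa10 act in stem and progenitor cells with the cofactor Meis1, and fall silent as cells mature. Endothelial and connective tissue cells of the adult keep Hox patterns that differ between sites of the body. Here paralogs 1 to 3 are called anterior, 4 to 8 central and 9 to 13 posterior.

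On GRCm38 (mm10), with positions from the GENCODE vM21 annotation, the HoxA genes lie on chr6:52155590-52260880, the HoxB genes on chr11:96194316-96368256, the HoxC genes on chr15:102921103-103036852 and the HoxD genes on chr2:74668310-74765142. The 250 bases upstream of the RefSeq start (GRCm38.p6) are shown for 4 of the genes the comparisons turn on: Hoxa9 and Hoxa10, higher in LSK than in bone EC, Hoxd8, lower in LSK than in bone EC, and Hoxa5, which was high in both. Each reads 5′ to 3′ on the gene's strand, and capitals mark CCAAT or its reverse complement ATTGG, the letters bound by the general factor NF-Y.
Hoxa9, chr6:52227371-52227620, minus strand: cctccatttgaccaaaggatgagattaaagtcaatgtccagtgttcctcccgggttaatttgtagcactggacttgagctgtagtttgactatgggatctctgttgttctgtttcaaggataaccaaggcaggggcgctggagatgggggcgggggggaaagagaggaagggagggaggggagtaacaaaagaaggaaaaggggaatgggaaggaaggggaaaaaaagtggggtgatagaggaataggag
Hoxa10, chr6:52240855-52241104, minus strand: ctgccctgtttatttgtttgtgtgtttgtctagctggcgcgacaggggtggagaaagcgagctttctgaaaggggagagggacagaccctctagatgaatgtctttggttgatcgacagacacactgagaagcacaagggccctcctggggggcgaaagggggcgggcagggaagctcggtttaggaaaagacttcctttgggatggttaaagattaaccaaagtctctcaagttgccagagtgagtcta
Hoxa5, chr6:52204588-52204837, minus strand: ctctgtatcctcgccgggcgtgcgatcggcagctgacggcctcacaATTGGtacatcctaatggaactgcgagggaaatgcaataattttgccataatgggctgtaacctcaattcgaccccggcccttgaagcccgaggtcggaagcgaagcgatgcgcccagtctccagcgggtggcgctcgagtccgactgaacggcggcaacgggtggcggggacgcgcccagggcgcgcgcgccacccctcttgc
Hoxd8, chr2:74704365-74704614, plus strand: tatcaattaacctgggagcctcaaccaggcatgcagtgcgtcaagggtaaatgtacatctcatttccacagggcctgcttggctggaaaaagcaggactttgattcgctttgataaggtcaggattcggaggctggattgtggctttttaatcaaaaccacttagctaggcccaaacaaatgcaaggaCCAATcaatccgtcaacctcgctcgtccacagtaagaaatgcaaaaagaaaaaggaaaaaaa

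CCAAT stood once in the Hoxa5 and once in the Hoxd8 window, and its letters were not in the Hoxa9 and Hoxa10 windows. On both strands it was in 12 of the 21 Hox windows the table holds (57.1%) and in 33.8% of all 32851 windows of that length. TATAAA was in 2 of the 21 (Hoxb8 and Hoxd13) against 12.4% of all windows. TGACAG, a MEIS-type motif, was in 2 (Hoxa2 and Hoxa3) against 15.9%, and TGATTNAT, a HOX and PBX type motif, in 1 (Hoxa2) against 2.82%. CpG count separated the windows shown, with 28 in Hoxa5, 7 in Hoxa10, 6 in Hoxd8 and 3 in Hoxa9, beside a median of 12 over the 21 Hox windows and 6 over all windows. The Hoxa10, Hoxa5 and Hoxd8 starts are those of GENCODE, while the RefSeq start of Hoxa9 lies 3719 bases inside the GENCODE gene, so its window is upstream of the shorter Hoxa9 transcript. These matches describe letters and not bound sites.

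The libraries held 1550668 (LSK replicate 1) to 12287676 (Vav1 DTX EC replicate 1) counted reads, with LSK the shallowest group. Hox genes took 17576 reads over all 33 libraries, and 404 for a single gene in a single library at most (Hoxb7 in Apln+ EC replicate 3). LSK libraries had more low-level signal than the others: 6.62 to 14.9% of 1421 olfactory and vomeronasal receptor genes, which marrow is not known to use, reached 1 FPKM (fragments per kilobase of exon, scaled to library size) there, against at most 0.211% in any other library. In LSK, values near 1 FPKM are therefore not told apart from this background, whose 99th percentile was 1.91 FPKM. BMC and Lin- libraries were made with a kit for total RNA and all others with a low-input kit, so that kit and cell type cannot be told apart between those sets. The cell type markers went with the labels: the 18 pan-endothelial genes summed to 1200 to 7550 FPKM in EC libraries against 36.0 to 146 FPKM in BMC, Lin- and LSK, and Meis1 was highest in LSK. EC libraries other than irradiated bone EC also held 27100 to 140000 FPKM of 12 neutrophil genes. Lin- libraries held 1300 to 4730 FPKM of osteoblast and cartilage genes. Lin- replicate 3 also held 89900 FPKM of 10 erythroid genes, against 2090 and 2200 in replicates 1 and 2. Apln+ EC replicate 1, Vav1 DTX EC replicate 2 and Lin- replicate 3 stood apart from their groups (chi-square per gene 81.5 to 167 against the others). Esm1+ EC replicates 1 and 2 were close to the counting noise (chi-square per gene 1.37, against 25.2 and 26.7 with replicate 3).

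Of the 38 Hox genes, 15 reached a mean of 1 FPKM in at least 1 group, 6 of them 5 FPKM (Hoxa5, Hoxa7, Hoxa9, Hoxa10, Hoxb7 and Hoxd8), and 23 stayed under 1 FPKM in every group. By cluster, 8 of 11 HoxA, 5 of 10 HoxB, 0 of 9 HoxC and 2 of 8 HoxD genes reached 1 FPKM. Hoxa3 is among them through LSK alone, at a mean of 1.05 FPKM, under the receptor background there. The highest HoxC mean was 0.533 ± 0.809 FPKM (SD, n = 3) for Hoxc10 in irradiated bone EC, from 1 library at 1.46 FPKM and the others at 0.0 and 0.136. The 9 genes of paralogs 11 to 13, which pattern the distal limb and hindgut in the embryo, had means of at most 0.212 FPKM, and Hoxc12 and Hoxd12 had no read in any library.

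**Figure D1:**
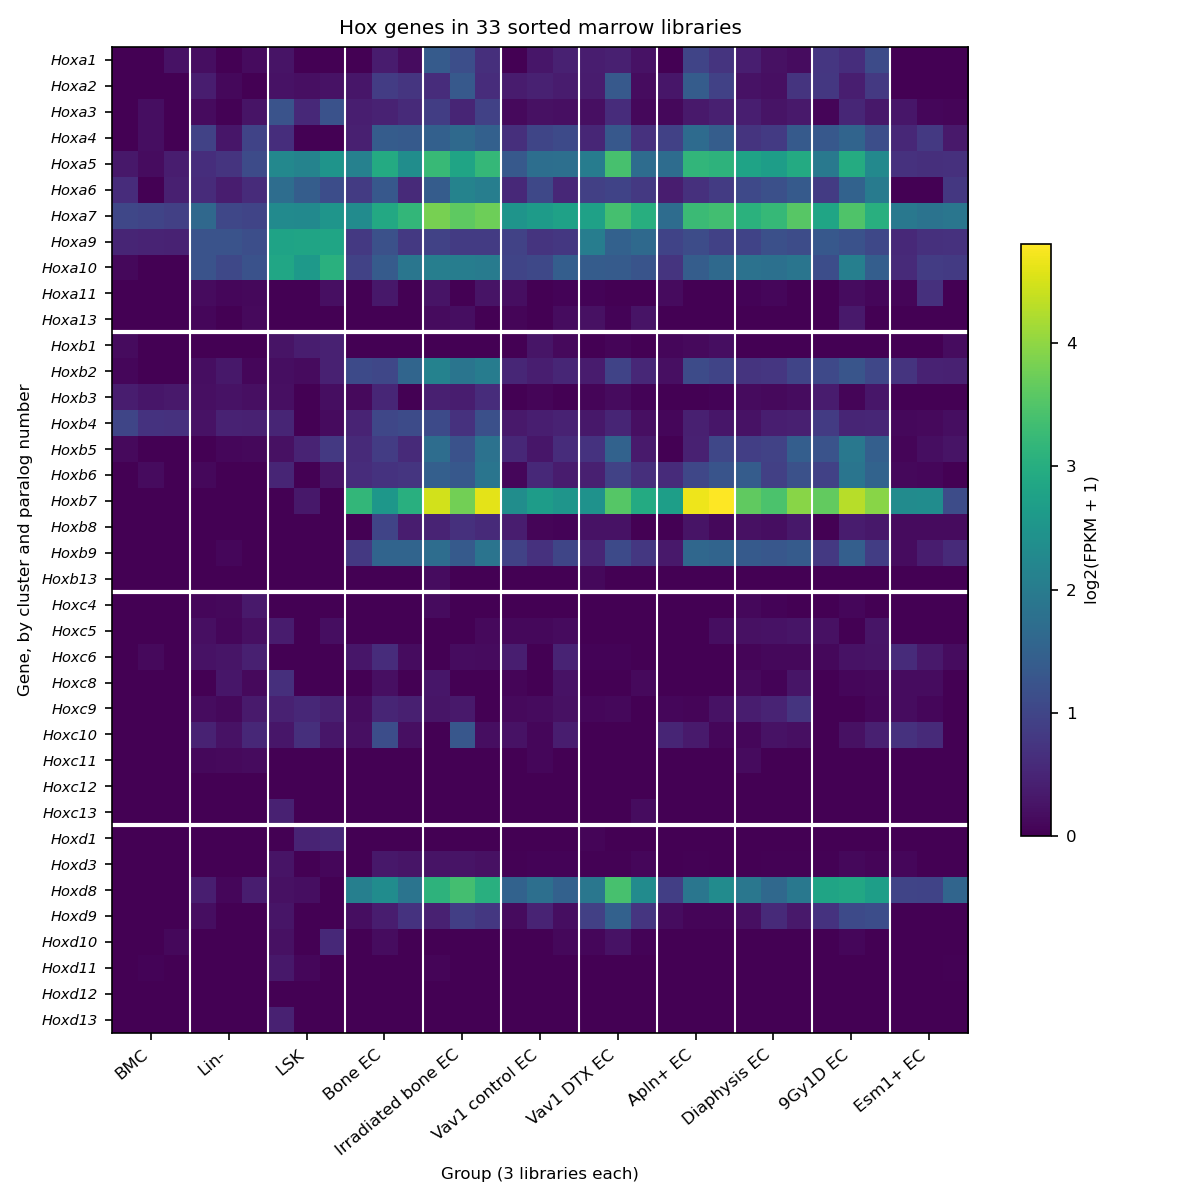
Level of each of the 38 Hox genes (rows, by cluster A to D and paralog number) in each of the 33 libraries (columns, 3 per group), as log2(FPKM + 1). Hoxa9 and Hoxa10 are brightest in LSK, Hoxb7 and Hoxd8 are bright in bone EC and dark in LSK, Hoxa5 and Hoxa7 are bright in both, and the HoxC rows stay dark throughout.

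The number of Hox genes at a mean of 1 FPKM or more was 0 in BMC, 3 in Lin- and 6 in LSK, of which Hoxa3 (1.05 FPKM) and Hoxa6 (1.71 FPKM) lay under the receptor background of LSK. Among EC groups it was 12 in irradiated bone EC and in 9Gy1D EC, 10 in diaphysis EC, 8 in untreated bone EC and Apln+ EC, 7 and 5 in Vav1 DTX and Vav1 control EC, and 3 in Esm1+ EC. Summed over the 38 genes, the level was 3.23 ± 0.548 FPKM in BMC, 8.41 ± 1.54 in Lin-, 27.1 ± 3.22 in LSK and 34.0 ± 7.16 in bone EC (SD, n = 3). LSK and bone EC had Hox sums that overlapped between libraries on FPKM (23.4 to 29.1 and 25.9 to 39.6). On TPM, which sets every library to the same total, they did not overlap and the order turned, with 87.7 to 104 in LSK and 60.4 to 83.7 in bone EC. The makeup of the sums, which does not depend on that scale, differed.

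In LSK, HoxA genes made up 86.9 ± 2.41% of the Hox sum, HoxB 5.31 ± 1.04%, HoxC 4.31 ± 1.93% and HoxD 3.46 ± 1.02%. The HoxA share was 74.3 ± 4.56% in Lin- and 63.5 ± 4.78% in BMC, below LSK and above the EC means. The BMC shares rest on 47 to 55 Hox reads a library. Every HoxB, HoxC and HoxD gene lay under the receptor background in LSK, so their shares there are near the floor. In bone EC the shares were 48.5 ± 6.42% for HoxA, 37.0 ± 7.34% for HoxB, 3.06 ± 2.32% for HoxC and 11.4 ± 1.74% for HoxD. Across the 8 EC groups the mean HoxA share ran from 41.2% (9Gy1D EC) to 53.7% (Vav1 DTX EC), the HoxB share from 28.5% (Vav1 DTX EC) to 48.8% (Apln+ EC) and the HoxD share from 5.88% (Apln+ EC) to 17.3% (Vav1 DTX EC). Shares within a library do not depend on scaling between libraries.

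Along the clusters, posterior genes held 50.2 ± 1.82% of the LSK sum, 40.1 ± 2.96% of the Lin- sum and 14.3 ± 1.5% of the BMC sum. They held 10.9 to 18.2% on average in the EC groups, where central genes held 76.5 to 83.7%. By paralog number, paralogs 10 and 9 led in LSK with 24.8 ± 2.47% and 24.1 ± 3.12% of the sum, of which Hoxa10 and Hoxa9 were the highest members. Paralog 7 led in bone EC with 39.0 ± 9.3%, through Hoxb7 and Hoxa7. Hoxb7 was the highest Hox gene in 17 of 24 EC libraries, Hoxa7 in 6, and in 6 of the 8 EC groups the 4 highest were Hoxb7, Hoxa7, Hoxa5 and Hoxd8. In the other 2 groups Hoxa10 took the place of a gene by its mean only: in diaphysis EC it was at 2.55 against 2.54 FPKM for Hoxd8, and in Esm1+ EC at 0.679 against 0.584 for Hoxa5, with libraries of the genes overlapping in both.

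**Figure D2:**
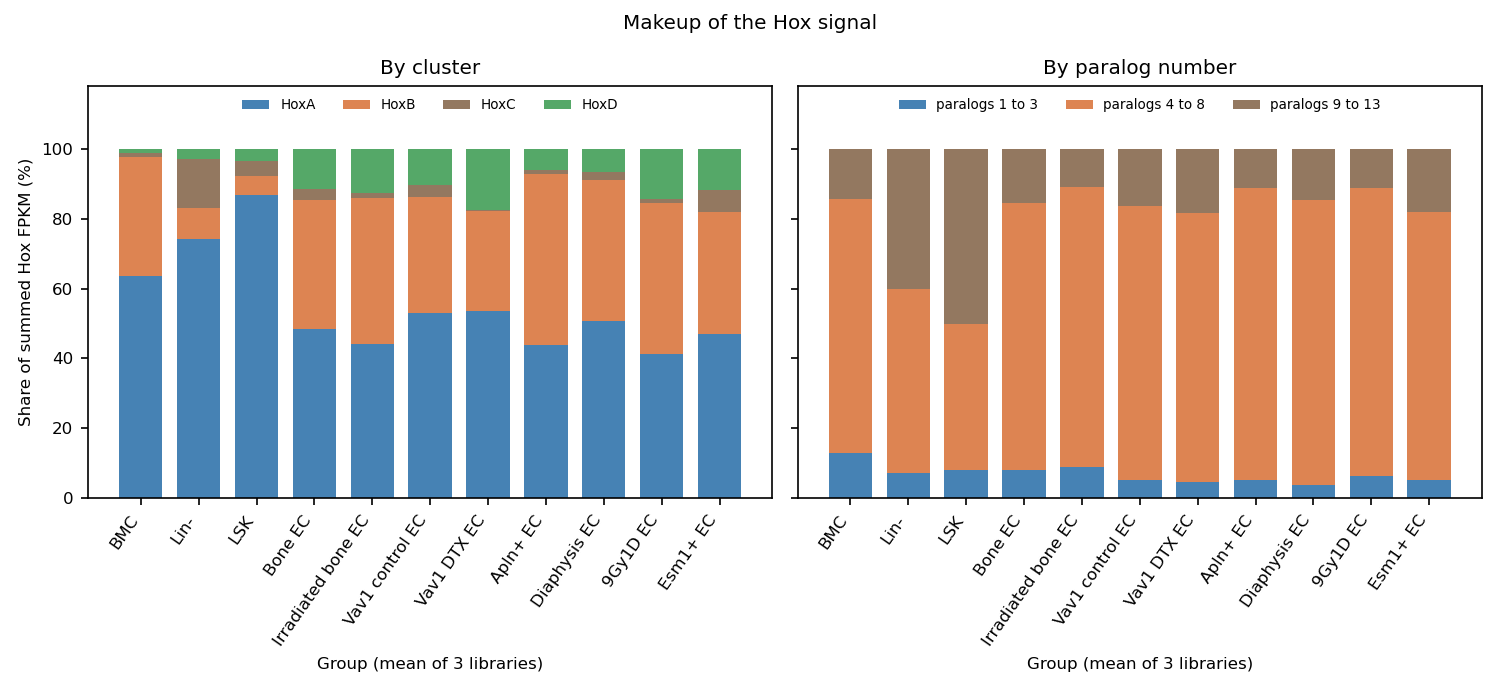
Mean share (%) of the summed Hox FPKM held by each cluster (left) and by each range of paralog numbers (right), for the 11 groups of 3 libraries; each bar adds up to 100%. HoxA and paralogs 9 to 13 hold 86.9% and 50.2% in LSK, then 74.3% and 40.1% in Lin-, while central paralogs fill 76.5 to 83.7% of the bars of the endothelial groups.

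Between groups, each gene was compared only within a table, on log2(FPKM + 1), with limma across all genes that reached 1 FPKM in at least 3 of the 6 libraries and Benjamini-Hochberg adjustment over all of them. A gene is called at an adjusted p under 0.05. Where 0 members are given as lower below, limma also had 0 lower at an unadjusted p under 0.05, except where said, and limma voom on the recovered reads had 0. Members below the filter were not tested. A member said to have passed through 1 group alone was under 1 FPKM in every library of the other group. It had to differ, so its direction is no support. Other called members, such as Hoxa9 in LSK against bone EC, had some low-group libraries under 1 FPKM and would have passed on the high group too. The filter favours their direction as well. On this scale a difference understates the change of low genes. In bulk samples fewer cells of a type and less RNA per cell cannot be told apart.

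LSK against bone EC asks which Hox genes distinguish stem and progenitor cells from bone endothelium. LSK came from wildtype and bone EC from Cdh5-mTnG reporter mice, so genotype and cell type cannot be told apart. Hoxa9 was at 5.94, 6.02 and 6.05 FPKM in LSK and 0.734, 1.29 and 0.74 in bone EC. Hoxa10 was at 6.14, 5.08 and 7.31 FPKM in LSK and 0.92, 1.6 and 2.7 in bone EC. Both were high in every LSK library, without overlap, and both are drivers of progenitor self-renewal and of leukaemia when overexpressed. The log2 difference was 1.88 ± 0.17 for Hoxa9 (SE, limma adjusted p = 5.5e-05) and 1.43 ± 0.26 for Hoxa10 (adjusted p = 0.0018).

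Hoxb7 and Hoxd8 went the other way. Hoxb7, a central gene that has been tied to vessel growth, was at 8.14, 4.87 and 7.14 FPKM in bone EC, from 23 to 46 reads a library, and at 0.0, 0.234 and 0.0 in LSK, from 1 read in all. Hoxd8 was at 3.19, 4.05 and 2.61 FPKM in bone EC and at 0.159, 0.132 and 0.0 in LSK. The LSK libraries were thus at or near 0 for both. Over pooled reads Hoxb7 was 78.8-fold higher in bone EC (95% interval 13.9 to 3140, counting error only) and Hoxd8 33.4-fold higher (8.99 to 280). Their log2 differences, LSK minus bone EC, were -2.82 ± 0.22 (adjusted p = 1.9e-05) and -1.95 ± 0.19 (adjusted p = 6.9e-05). Hoxb2, an anterior gene of the hindbrain code, differed by -0.97 ± 0.21 (adjusted p = 0.0044). Hoxb9, at 0.743, 1.91 and 1.93 FPKM in bone EC, had no read in LSK but did not pass the filter.

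The central HoxA genes Hoxa5 and Hoxa7 did not pass between LSK and bone EC. Hoxa7 was at 3.95, 3.89 and 4.72 FPKM in LSK and 3.99, 6.48 and 8.05 in bone EC (log2 difference -0.43 ± 0.23, adjusted p = 0.14). Hoxa5 was at 3.72, 3.46 and 4.61 FPKM in LSK and 3.35, 6.62 and 4.11 in bone EC (-0.17 ± 0.23, adjusted p = 0.54). The groups overlapped for both, and on TPM, which moved the median of all genes to 0.71, the differences were 0.18 and 0.45. In all, 8 of the 38 genes were tested, 2 were higher in LSK (30.6% of all genes tested were) and 3 lower (29.5%). The 3 lower genes were under 1 FPKM in every LSK library and passed the filter through bone EC alone. The groups did not overlap for 5 of the 8, beside 66.5% of all genes tested. The median over the 38 genes was -0.02, beside 0.32 over all genes with a read.

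Against Lin- cells, LSK was higher in the HoxA genes from Hoxa5 to Hoxa10. Hoxa9 was at 1.36, 1.36 and 1.24 FPKM in Lin- and Hoxa10 at 1.34, 1.06 and 1.32, against the LSK values above. Hoxa5 was at 0.546, 0.644 and 1.15 FPKM in Lin-, Hoxa6 at 0.508, 0.299 and 0.498 against 2.27, 1.67 and 1.19 in LSK, and Hoxa7 at 2.09, 1.02 and 0.974. No Lin- library reached the lowest LSK library in any of these 5 genes. The log2 differences were 1.67 ± 0.18 for Hoxa10 (limma adjusted p = 0.00024), 1.59 ± 0.15 for Hoxa9 (0.00013), 1.48 ± 0.19 for Hoxa5 (0.00058), 1.16 ± 0.22 for Hoxa7 (0.0031) and 0.9 ± 0.19 for Hoxa6 (0.0054). All 5 tested Hox genes, of which Hoxa6 passed the filter through LSK alone, were higher in LSK, beside 33.4% of all genes tested, and 0 were lower, beside 25.5%. The share of all genes without overlap was 67.1%, and 5 of the 5 tested members had none. The median over the 38 genes was 0.06, beside 0.35 over all genes with a read. The Hoxa6 level in LSK is within the range of the receptor background there. LSK and Lin- also differ in library kit, and TPM moved the median of all genes to 0.91.

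Against whole marrow, Lin- cells were higher in the posterior genes Hoxa9 and Hoxa10. Hoxa10 was at 0.0705, 0.0 and 0.0 FPKM in BMC, 1 read in 3 libraries, against 70 reads in Lin-, a ratio of 57.3 (95% interval 9.95 to 2290). Hoxa9 was at 0.413, 0.391 and 0.379 FPKM in BMC. Neither overlapped the Lin- libraries, and the log2 differences were 1.13 ± 0.14 (adjusted p = 0.00065) and 0.73 ± 0.13 (adjusted p = 0.003). Hoxa7 was the most abundant Hox gene in whole marrow, at 1.04, 0.987 and 0.869 FPKM, and its difference, 0.23 ± 0.21, did not pass (adjusted p = 0.37). Thus 2 of 3 tested members were higher, beside 29.1% of all genes, and 0 lower, beside 28.4%, and both passed the filter through Lin- alone. The groups did not overlap for 2 of the 3, beside 66.1% of all genes, and the median over the 38 members was 0.06 beside 0.03. Other cell content moved with this comparison: 14 limb and mesenchymal stromal genes summed to 130 to 185 FPKM in Lin- and 2.91 to 4.14 in BMC (8 of 8 tested higher), and 13 osteoblast and cartilage genes to 1300 to 4730 and 10.1 to 24.8 (10 of 11 tested higher). Stem and progenitor genes summed to 296 to 379 FPKM in Lin- and 128 to 145 in BMC, and the part of these in the Hox difference was not tested. In LSK, made with the other kit, the stromal genes summed to 13.9 to 19.4 FPKM, and how they relate to Hoxa9 and Hoxa10 was not tested.

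Hoxb4, widely used to expand stem cells in culture, was low in LSK, at 0.421, 0.0 and 0.0993 FPKM from 4 reads or fewer a library. In BMC it was at 1.0, 0.631 and 0.603 FPKM and in Lin- at 0.177, 0.374 and 0.364, so that its LSK libraries lay below BMC and overlapped Lin-. It did not pass the filter in these comparisons, and its highest mean was 0.987 ± 0.343 FPKM in irradiated bone EC. Hoxb5, used elsewhere as a marker of long-term stem cells, was at 0.155, 0.385 and 0.732 FPKM in LSK, under the receptor background, and at 0.486, 0.814 and 0.49 in bone EC.

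Bone EC against Lin- and against BMC gave the same 5 called Hox genes: Hoxa5, Hoxa7, Hoxb2, Hoxb7 and Hoxd8. Both comparisons share the bone EC libraries. Hoxb7 had no read in the 3 Lin- and 3 BMC libraries, and bone EC was at least 59.7-fold and at least 48.8-fold higher against a floor of 3 reads over the group. Its log2 differences were 2.92 ± 0.19 (limma adjusted p = 1.3e-05) and 2.92 ± 0.18 (adjusted p = 6.9e-06). Hoxd8 had no read in BMC, at least 42.4-fold below bone EC (2.09 ± 0.16, adjusted p = 2e-05), and was at 0.32, 0.0629 and 0.314 FPKM in Lin- (1.79 ± 0.18, adjusted p = 0.0001).

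Hoxa5 differed by 2.18 ± 0.22 from BMC (adjusted p = 7.7e-05) and by 1.65 ± 0.25 from Lin- (0.00071), and Hoxa7 by 1.83 ± 0.22 (0.0002) and 1.59 ± 0.28 (0.0015). Against Lin-, 7 genes were tested and 5 were higher (35.8% of all genes were) and 0 lower (30.8%). Hoxa9 and Hoxa10 did not differ beyond the spread, at -0.28 ± 0.16 (adjusted p = 0.16) and 0.24 ± 0.24 (adjusted p = 0.41). Hoxb2, Hoxb7 and Hoxd8 passed the filter there through bone EC alone. Against BMC 5 were tested and called higher (35.8%) and 0 lower (34.6%). Of the 5, 4 were under 1 FPKM in every BMC library and passed through bone EC alone. Hoxa7 was at 1.04, 0.987 and 0.869 FPKM in BMC, so that the bone EC libraries were enough for it to pass too. The groups did not overlap for 5 of 7 genes against Lin- and 5 of 5 against BMC, beside 72.0% and 74.7% of all genes. The medians over the 38 genes were 0.08 against Lin- and 0.26 against BMC, beside 0.02 and 0.03 over all genes with a read. Bone EC also differs from Lin- and BMC in library kit and in genotype, since Lin- and BMC came from wildtype mice.

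**Figure D3:**
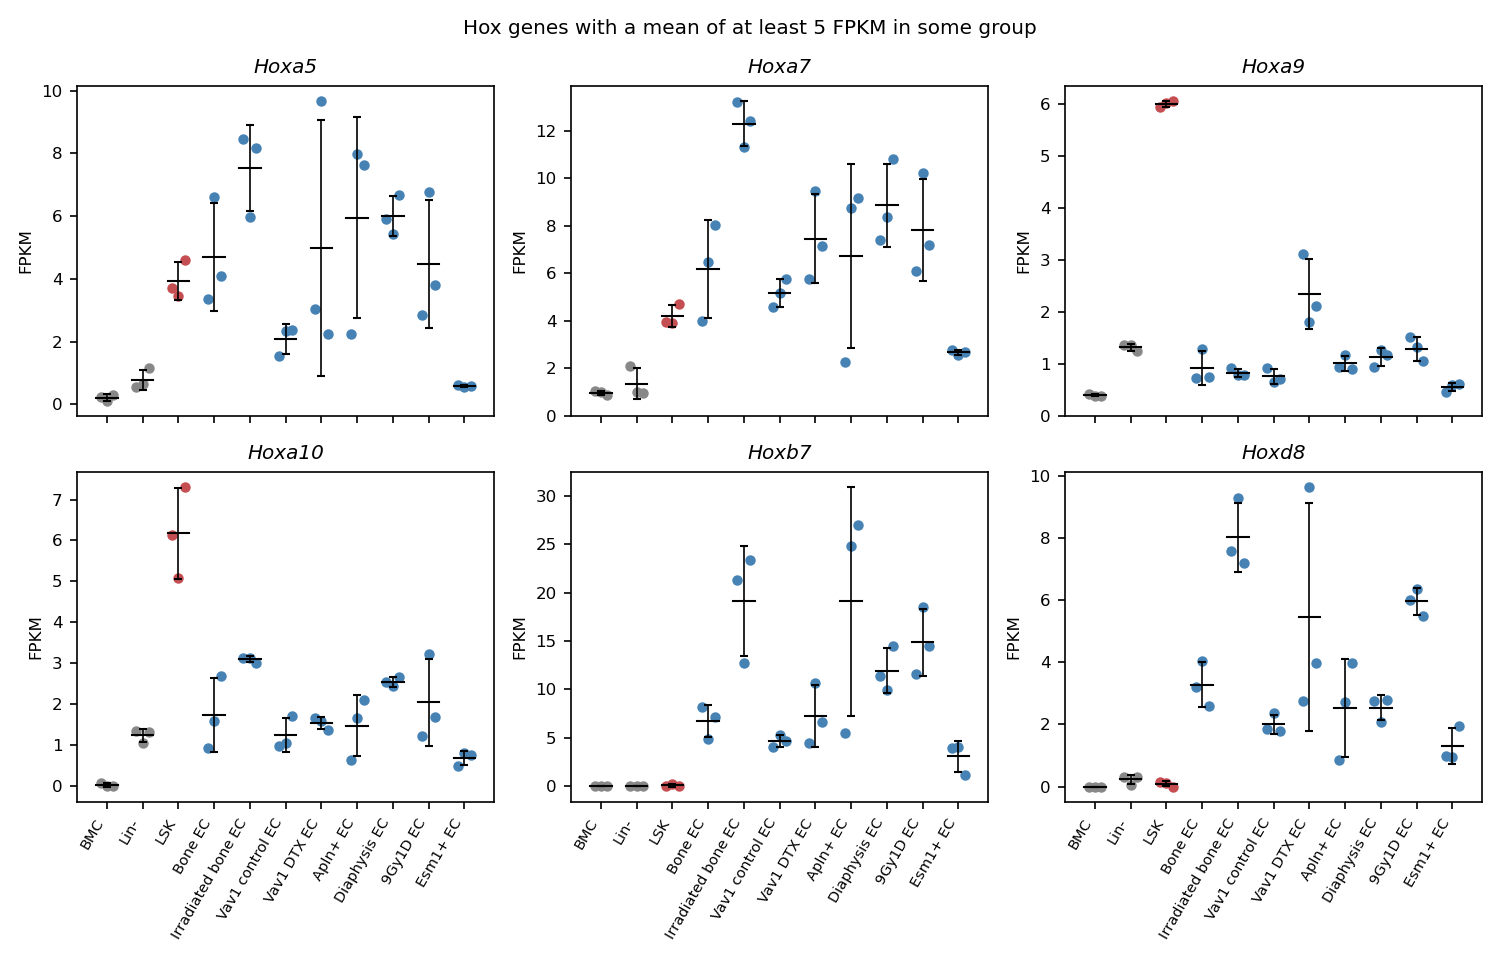
FPKM of the 6 Hox genes with a mean of at least 5 FPKM in some group, in each of the 3 libraries of the 11 groups (points), with group mean (line) and SD (bars); grey marks BMC and Lin-, red LSK and blue the endothelial groups. Hoxa9 and Hoxa10 peak in LSK at 6.0 and 6.18 FPKM, and Hoxb7 and Hoxd8 lie at or near 0 outside the endothelial groups.

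After 9 Gy, bone EC held more RNA of 7 Hox genes as deposited, 6 of the 9 central genes tested and the anterior Hoxb2. Hoxb7 was at 21.3, 12.7 and 23.4 FPKM in irradiated against 8.14, 4.87 and 7.14 in untreated bone EC. Hoxa7 was at 13.2, 11.3 and 12.4 against 3.99, 6.48 and 8.05, and Hoxd8 at 7.57, 9.28 and 7.19 against 3.19, 4.05 and 2.61. Every irradiated library lay above every untreated one for these 3 genes. The log2 differences were 1.36 ± 0.27 for Hoxb7 (limma adjusted p = 0.0061), 1.08 ± 0.18 for Hoxd8 (0.003) and 0.93 ± 0.23 for Hoxa7 (0.015). Smaller genes were called too: Hoxa6 (0.95 ± 0.28, adjusted p = 0.03), Hoxb5 (0.91 ± 0.21, 0.011), Hoxb6 (0.86 ± 0.19, 0.0095) and Hoxb2 (0.79 ± 0.2, 0.016). Of 12 tested members 7 were higher, beside 22.5% of all genes, and 0 were lower, beside 19.4%. Hoxb5 and Hoxb6 passed the filter through irradiated bone EC alone. The groups did not overlap for 9 of the 12, beside 54.2% of all genes. The median over the 38 genes was 0.08, beside 0.02 over all genes with a read.

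The posterior genes tested, Hoxa10 and Hoxb9, did not pass, and the bands were not tested against each other. Hoxa10 was at 3.14, 3.13 and 3.01 FPKM after irradiation and 0.92, 1.6 and 2.7 before (0.63 ± 0.24, adjusted p = 0.076). Hoxa9 was at 0.919, 0.779 and 0.79 FPKM against 0.734, 1.29 and 0.74, overlapped and was not tested, and Hoxb9 differed by 0.35 ± 0.25 (adjusted p = 0.31). Hoxa5 was at 8.47, 5.96 and 8.16 against 3.35, 6.62 and 4.11 (0.61 ± 0.24, adjusted p = 0.081).

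The endothelial content of these libraries moved with the Hox genes. The 18 pan-endothelial genes summed to 5600, 6900 and 7550 FPKM after irradiation and to 1930, 2100 and 2540 before, while 12 neutrophil genes summed to 986 to 4470 FPKM after and 45800 to 46300 before. For each 100 FPKM of pan-endothelial genes, the Hox sum was 1.08 ± 0.211 FPKM after and 1.56 ± 0.285 before (SD, n = 3). With libraries scaled to the pan-endothelial mean, which moved the median of all genes to -1.26, none of the 7 genes was called. Hoxb7 was at -0.10 ± 0.3, Hoxd8 at -0.26 ± 0.25, Hoxa7 at -0.5 ± 0.24, Hoxb2 at -0.27 ± 0.22 and Hoxa6 at -0.02 ± 0.3 (SE), below 0 where the deposited scale had them above it. Hoxb5 and Hoxb6 were at 0.08 ± 0.24 and 0.03 ± 0.2. All 7 lay above the all-gene median on that scale. On that scale 0 Hox genes were called higher and 3 lower (Hoxa5, Hoxb4 and Hoxb9). Without single libraries 5 to 7 members were called on the deposited scale. The part of endothelial content in the Hox differences beyond this scaling was not tested.

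**Figure D4:**
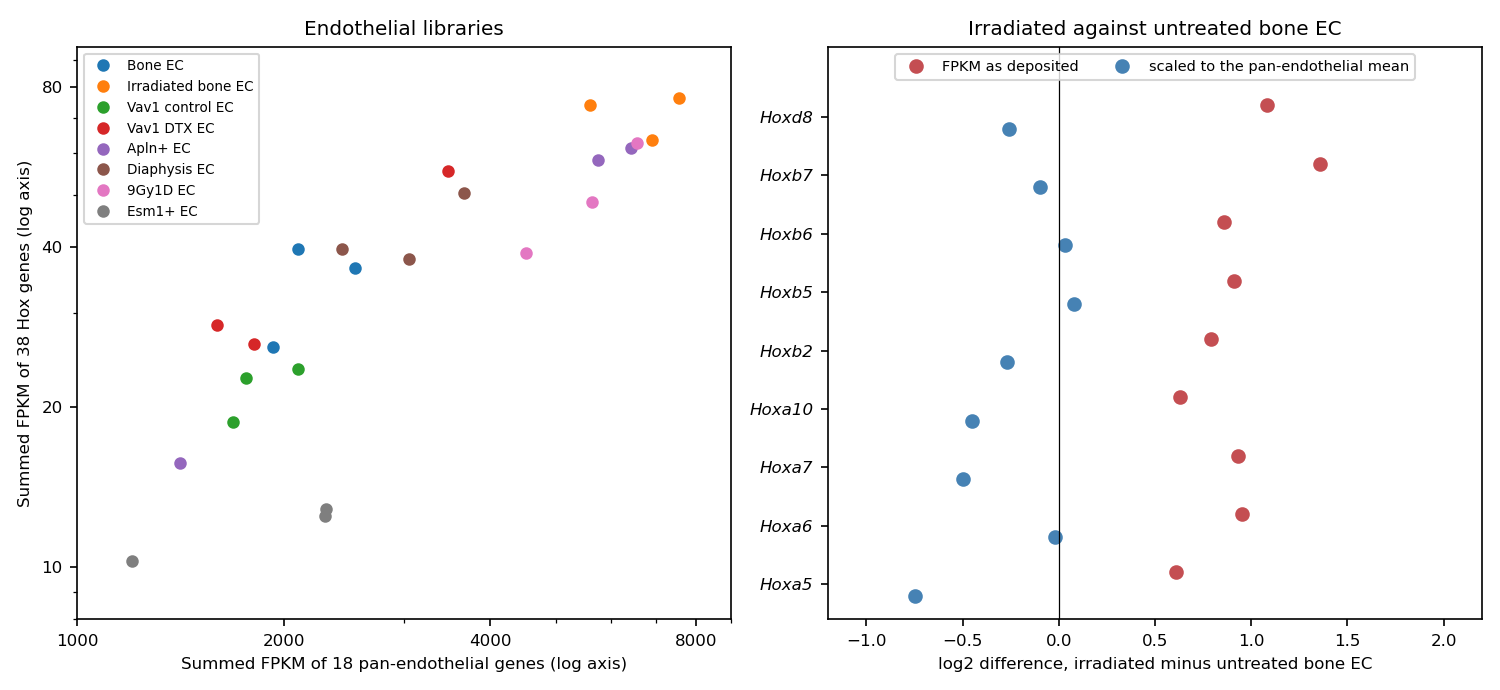
Left, summed FPKM of the 38 Hox genes against that of 18 pan-endothelial genes in the 24 endothelial libraries (both axes log). Right, log2 difference of 9 Hox genes between irradiated and untreated bone EC as deposited (red) and after scaling to the pan-endothelial mean (blue). The irradiated libraries are high on both sums, and Hoxb7 moves from 1.36 to -0.10.

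Between the Vav1 groups, Hoxa9 was the 1 called of 6 tested Hox genes, and it was higher in Vav1 DTX EC. It was at 3.11, 1.81 and 2.12 FPKM in Vav1 DTX EC and 0.925, 0.657 and 0.708 in Vav1 control EC, without overlap (0.91 ± 0.18, limma adjusted p = 0.011). Of all genes 11.3% were higher and 15.0% lower. The groups did not overlap for 3 of the 6 members (Hoxa7, Hoxa9 and Hoxd8), beside 46.3% of all genes. Hoxa10, the neighbour of Hoxa9 in the cluster, overlapped, at 1.65, 1.59 and 1.37 against 0.982, 1.05 and 1.72 FPKM (0.19 ± 0.17, adjusted p = 0.45). Hoxa9 was under 1 FPKM in every control library and passed the filter through Vav1 DTX EC alone. Scaled to the pan-endothelial mean, the Hoxa9 difference was 0.81 with an adjusted p of 0.12. Blood and stromal markers moved with it: from control to DTX the mean sums went from 63800 to 2820 FPKM for erythroid genes, 14100 to 4140 for monocyte and macrophage genes, 545 to 25.3 for B lymphoid genes and 74.1 to 19.5 for limb and mesenchymal stromal genes. Of 12 neutrophil genes, Ctsg and Prtn3, which encode granule proteases of progenitors, were called higher and Mmp8 and Mmp9 lower. The part of these cells in the Hoxa9 difference was not tested. The exons of Hoxa9 overlap those of the microRNA gene Mir196b on the same strand, so reads there could not be assigned to one of them.

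Other Hox genes in this pair leaned on Vav1 DTX EC replicate 2. Hoxd8 was at 2.75, 9.64 and 3.99 FPKM against 1.84, 2.36 and 1.8 (0.97 ± 0.36, adjusted p = 0.093), and Hoxa5 at 3.04, 9.67 and 2.24 against 1.53, 2.35 and 2.37 (0.76 ± 0.43, adjusted p = 0.23). That library was the highest for both, and its pan-endothelial sum was 3480 FPKM, against 1810 and 1600 in replicates 1 and 3. Hoxb7 was at 4.45, 10.7 and 6.64 against 4.09, 5.31 and 4.67 (0.48 ± 0.28, adjusted p = 0.25), and Hoxa7 at 5.76, 9.46 and 7.13 against 4.59, 5.19 and 5.74 (0.43 ± 0.19, adjusted p = 0.14). Without Vav1 DTX EC replicate 1, 2 members were called, Hoxa9 and Hoxd8 (Hoxd8 1.28, adjusted p = 0.047), and on TPM 3 were. Without replicate 2, the Hoxa9 call remained. Hoxd9 had its highest mean in Vav1 DTX EC, at 0.883, 1.81 and 0.671 FPKM against 0.105, 0.392 and 0.136, and did not pass the filter. The median over the 38 genes was 0.02, beside 0.0 over all genes with a read.

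Between Apln+ EC and diaphysis EC, limma called 0 of 10 tested Hox genes, beside 2.84% of all genes higher and 4.64% lower. Hoxb7 was at 5.47, 24.8 and 27.0 FPKM in Apln+ EC and 11.4, 9.93 and 14.5 in diaphysis EC (0.38 ± 0.56, limma adjusted p = 0.77). Replicate 1 of Apln+ EC was lowest of all 6 libraries, and replicates 2 and 3 highest. The same replicate had a Hox sum of 15.7 FPKM against 58.3 and 61.3, and a pan-endothelial sum of 1410 FPKM against 5750 and 6430. Without it Hoxb7 was the 1 gene called, at 1.07 (adjusted p = 0.0032), and Hoxa7, Hoxa5 and Hoxd8 turned from -0.51, -0.14 and -0.11 to 0.03, 0.33 and 0.29. Hoxb7 per 100 FPKM of pan-endothelial genes was 0.413 ± 0.0222 in Apln+ EC and 0.396 ± 0.0713 in diaphysis EC (SD, n = 3).

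Among the others, Hoxa6 was at 0.305, 0.584 and 0.775 FPKM in Apln+ EC and 1.08, 1.27 and 1.56 in diaphysis EC, and Hoxa10 at 0.645, 1.67 and 2.11 against 2.53, 2.44 and 2.67. Neither overlapped, and neither passed (-0.57 ± 0.18, adjusted p = 0.12, and -0.57 ± 0.25, adjusted p = 0.27). They were the 2 of 10 tested members without overlap, beside 27.8% of all genes. By limma at an unadjusted p under 0.05, 1 member was lower (Hoxa6) and 0 were higher, and limma voom on the reads called 0. The median over the 38 genes was -0.05, beside 0.01.

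9Gy1D EC held more RNA of Hoxb7, Hoxd8 and Hoxa7 than Esm1+ EC. The other 6 of the 9 tested genes, also called higher, were under 1 FPKM in every Esm1+ library and passed the filter through 9Gy1D EC alone. Hoxb7 was at 11.6, 18.5 and 14.5 FPKM against 3.98, 4.06 and 1.16. Hoxd8 was at 6.01, 6.37 and 5.5 against 0.989, 0.953 and 1.96, and Hoxa5 at 2.84, 6.78 and 3.81 against 0.609, 0.557 and 0.587. No library of one group reached the other in these genes. The log2 differences were 2.04 ± 0.36 for Hoxb7 (limma adjusted p = 0.0037), 1.72 ± 0.27 for Hoxa5 (0.0023), 1.62 ± 0.21 for Hoxd8 (0.0011), 1.36 ± 0.21 for Hoxb5 (0.0024), 1.24 ± 0.2 for Hoxa7 (0.0029) and 0.81 ± 0.26 for Hoxa10 (0.041). Hoxa4, Hoxb2 and Hoxa9 differed by 0.79 ± 0.2 (0.016), 0.57 ± 0.17 (0.031) and 0.56 ± 0.16 (0.029). Of all genes 20.6% were higher and 23.1% lower, 57.3% did not overlap, and the median over the 38 members was 0.13 beside 0.03.

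These 2 groups also differed in makeup. The pan-endothelial genes summed to 4510, 6560 and 5640 FPKM in 9Gy1D EC and 2300, 2310 and 1200 in Esm1+ EC, and osteoblast and cartilage genes to 49.0 to 542 and 1980 to 2770 FPKM. Scaled to the pan-endothelial mean, which moved the median of all genes to -1.31, Hoxa5 and Hoxb5 stayed called, both higher. Both had passed the filter through 9Gy1D EC alone, so their direction is no support. Hoxb7, Hoxd8 and Hoxa7, which had not, were no longer called. They were at 0.76 ± 0.33 (SE, limma adjusted p = 0.056), 0.46 ± 0.4 (0.31) and -0.05 ± 0.34 (0.89). Hoxa4 was at 0.1 ± 0.25, also not called. Hoxa9, Hoxa10 and Hoxb2 were at -0.18 ± 0.28, -0.06 ± 0.3 and -0.09 ± 0.25, below 0 like Hoxa7. With Esm1+ replicates 1 and 2 averaged as 1 library, 6 members were called, and Hoxa9, Hoxa10 and Hoxb2 were lost (adjusted p = 0.089, 0.1 and 0.067). Without 9Gy1D EC replicate 2, 5 members were called. The Hox sum per 100 FPKM of pan-endothelial genes was 0.895 ± 0.0541 in 9Gy1D EC and 0.652 ± 0.177 in Esm1+ EC.

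**Figure D5:**
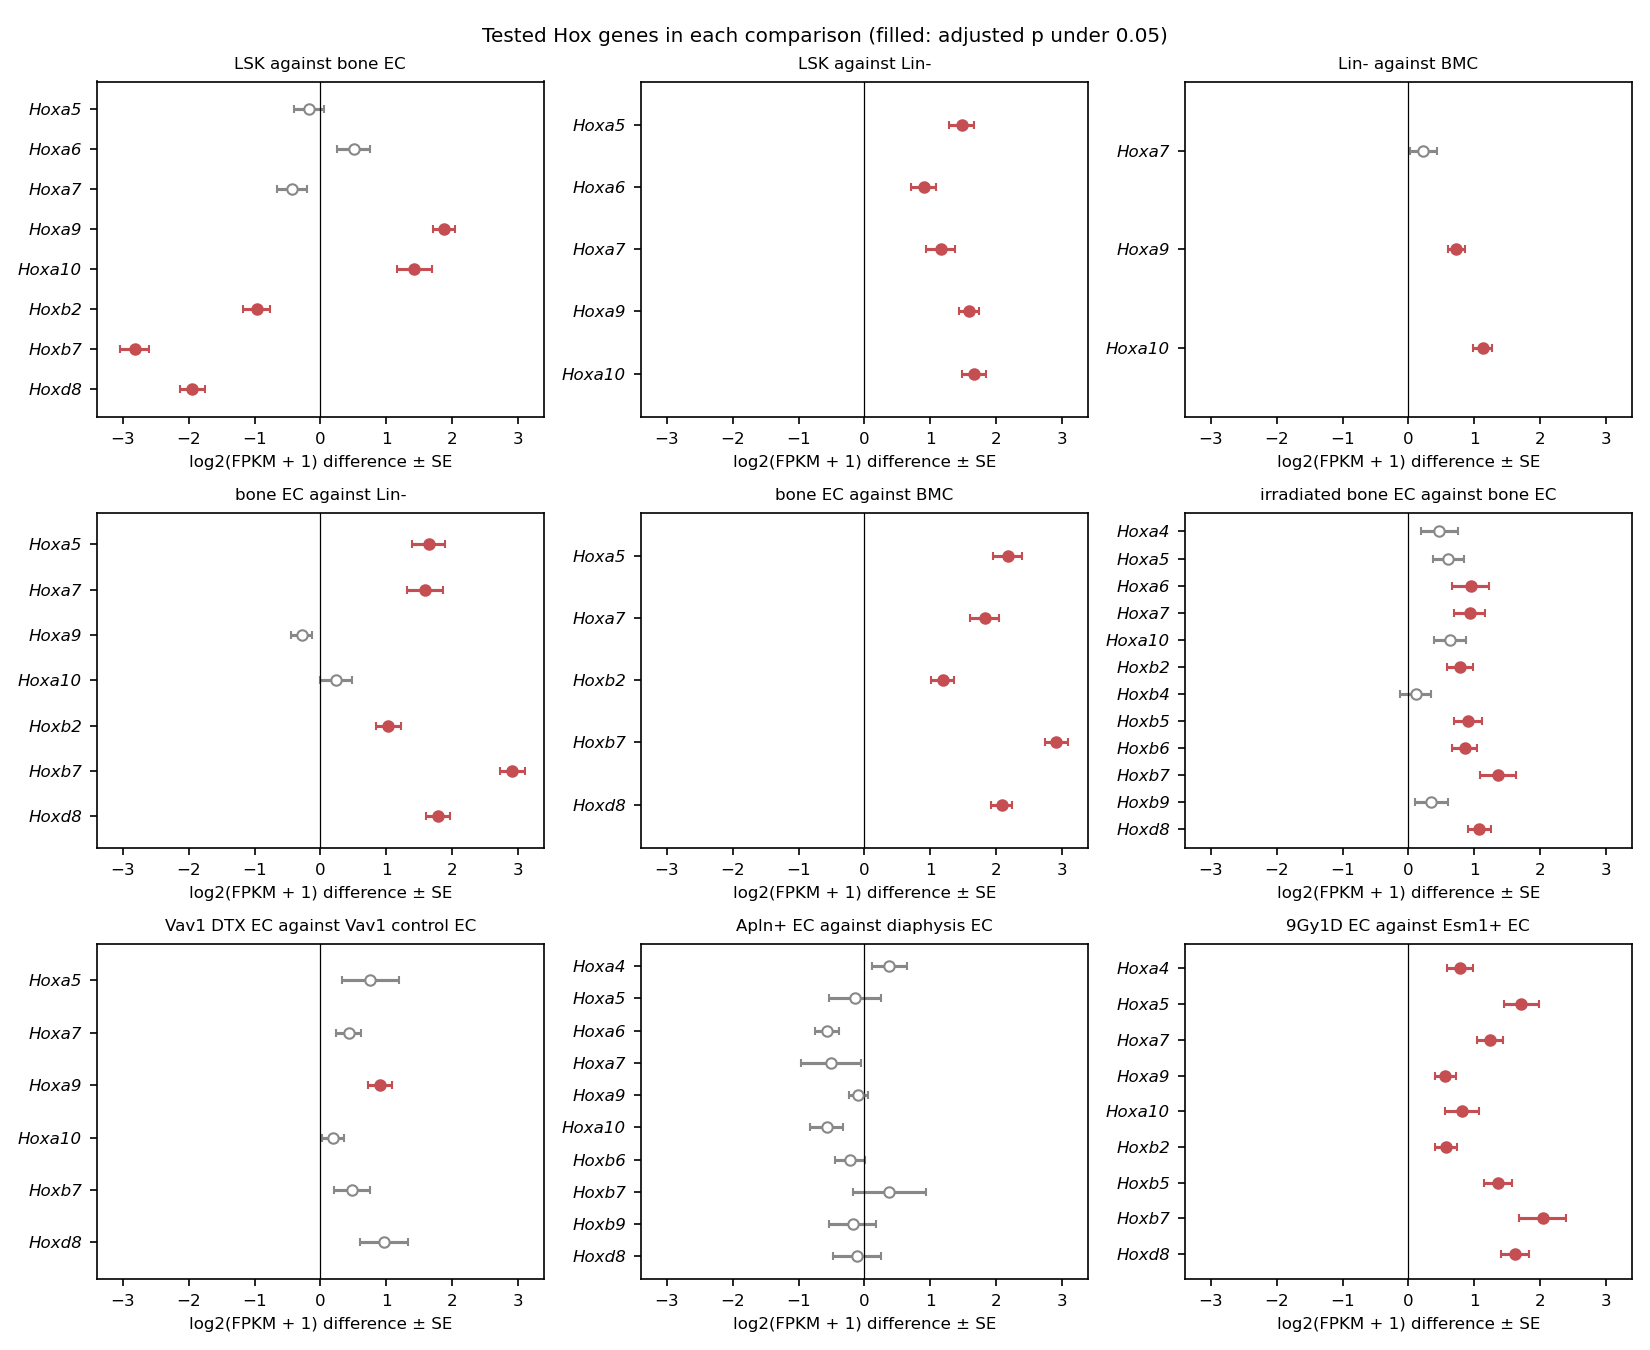
Difference in log2(FPKM + 1) ± SE (first group minus second) for each tested Hox gene in the 9 comparisons of 3 against 3 libraries; filled red points passed an adjusted p under 0.05. LSK gains Hoxa9 and Hoxa10 (1.88 and 1.43) and lacks Hoxb7 and Hoxd8 (-2.82 and -1.95) against bone EC, while 0 genes pass between Apln+ EC and diaphysis EC.

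The cofactors and regulators of the Hox genes were read from lists chosen for this purpose, by counts alone. Of 9 TALE homeodomain genes (Meis, Pbx and Pknox), 6 were tested between LSK and bone EC, 2 were higher and 1 lower, beside 30.6% and 29.5% of all genes. Meis1, the partner of Hoxa9, was at 17.3 ± 3.18 FPKM in LSK, 5.19 ± 0.919 in Lin-, 1.29 ± 0.0865 in BMC and 0.504 ± 0.242 in bone EC (SD, n = 3). Its LSK level differed from bone EC by 3.6 ± 0.19 (SE, limma adjusted p = 2.8e-06), and Pbx4, which binds DNA with HOX proteins, by 2.71 ± 0.29 (adjusted p = 0.00011). Meis3 went with the endothelial Hox genes in part: it was higher after irradiation (0.9 ± 0.26, adjusted p = 0.026) and in 9Gy1D EC than in Esm1+ EC (1.35 ± 0.28, adjusted p = 0.0076), and lower in Apln+ EC than in diaphysis EC (-1.17 ± 0.16, adjusted p = 0.01). On the pan-endothelial scale these differences were -0.18, 0.66 and -1.32, the first of them below 0.

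Of 20 Hox activators (the Kmt2a complex, retinoic acid receptors and Cdx genes), 16 were tested between LSK and bone EC, 8 were higher and 3 lower, beside the same shares of all genes. Dot1l, the methyltransferase of lysine 79 of histone H3, differed by 1.66 ± 0.17 (adjusted p = 8.7e-05), and the retinoic acid receptor Rarg by -1.6 ± 0.18 (adjusted p = 0.00014). Between LSK and Lin-, 16 activators were tested, and the count leaned the other way. There 1 was higher in LSK (Rara) and 7 were lower, beside 33.4% and 25.5% of all genes. The median over the tested activators was -0.33, beside 0.07 over all genes tested. Cdx2 and Cdx4 had no read in any group. Among 23 Polycomb genes, whose products silence Hox clusters, 21 were tested after irradiation. Of these, 5 were higher (Phc2, Rnf2, Scmh1, Bmi1 and Cbx7) and 2 lower (Ezh2 and Suz12), beside 22.5% and 19.4% of all genes. The share higher was thus near that of any gene. Ezh2, the histone H3 lysine 27 methyltransferase and also a gene of dividing cells, fell from 9.98 ± 2.1 to 1.73 ± 0.298 FPKM (log2 difference -2.0 ± 0.18, adjusted p = 0.00037). It was at 1.32 ± 0.406 FPKM in 9Gy1D EC and 7.04 ± 1.77 in Esm1+ EC (-1.78 ± 0.22, adjusted p = 0.00099). In that pair 20 Polycomb genes were tested and 4 were higher (Cbx7, Bmi1, Rnf2 and Phc2), beside 20.6% of all genes. Ezh2 was the 1 called lower, beside 23.1%. On the pan-endothelial scale the Ezh2 differences were -3.19 and -2.87. The part of Polycomb genes in the Hox differences was not tested.

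Of 12 other genes of the Hox clusters in the tables, Hoxb3os alone passed the filter in any comparison. This antisense RNA, whose exons overlap Hoxb2 and Hoxb3, was at 1.75 ± 0.386 FPKM in bone EC, 0.421 ± 0.178 in LSK and 0.0404 ± 0.0361 in Lin-, with no read in BMC. It went in the same direction as Hoxb2 in the comparisons that tested it, among them irradiated against untreated bone EC (0.65 ± 0.2, adjusted p = 0.032), which was -0.46 on the pan-endothelial scale. Strand use in the counting is not given in the sources used here, so reads of Hoxb2 and Hoxb3os cannot be told apart. In all, 15 of the 38 Hox genes share exon sequence with another annotated gene, 9 of them on the opposite strand, and Hoxa5, Hoxa10, Hoxb7 and Hoxd8 share none.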

How the data were processed

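Libraries were sequenced as RNA-seq of 11 groups of 3, and the authors deposited FPKM values in 4 tables of 38926 rows; 27 rows with date-like names in 3 tables were left out. Per the submitters' processing notes, the tools included DESeq2 1.18.1, HTSeq 0.6.1, TopHat2 2.1.1 and bcl2fastq 2.19.1.403, with build mm10. Per the labels' protocols, BMC and Lin- used a TruSeq total RNA kit and the rest SMART-Seq v4. Whole reads were recovered from the FPKM steps for 100.0% of genes (within 0.005 of a whole read), giving 1550668 to 12287676 reads a library; intervals cover counting error only.

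FPKM values were tested as log2(FPKM + 1) with limma 3.58.1 (R 4.3.3, eBayes with trend), per pair of groups within a table, on genes at 1 FPKM or more in at least 3 of 6 libraries, and called at an adjusted p under 0.05. Groups came from the labels. Named were genes with a mean of 5 FPKM or more in some group, and those called, of which the rule takes the 6 largest per direction; others called were named after their values were seen. The members and lists were chosen with earlier results of these data known. Alternatives were pseudocounts 0.1 and 5, no filter, median-of-ratios scaling, TPM, limma voom on recovered reads, a replicate block, each library left out, all libraries of a table together and, added after seeing the data, scaling to 18 pan-endothelial genes and averaging Esm1+ replicates 1 and 2. Scripts were tested on simulated data. Promoters came from RefSeq (GRCm38.p6), which matched 21 of 38 genes; a member without an entry has no window here.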

Additional observations from a re-analysis of the deposited data

How the results depend on the processing

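The calls between groups kept their count within 1.5 times under other pseudocounts, median-of-ratios scaling, limma voom and all libraries of a table together. Over all settings 18 gene values reversed. Without a filter, 6 Hox genes were called between Lin- and BMC, 9 between bone EC and Lin- and 15 between bone EC and BMC, since more genes were tested. With libraries scaled to pan-endothelial genes, 3 were called after irradiation, 0 between the Vav1 groups and 2 between 9Gy1D and Esm1+ EC; after irradiation Hoxa5, Hoxa6, Hoxa7, Hoxa10, Hoxb2, Hoxb7 and Hoxd8 were at -0.75, -0.02, -0.50, -0.45, -0.27, -0.10 and -0.26, and between 9Gy1D and Esm1+ EC Hoxa7, Hoxa9, Hoxa10 and Hoxb2 were at -0.05, -0.18, -0.06 and -0.09. On TPM, 3 were called between the Vav1 groups, and Hoxa5 and Hoxa7 were at 0.45 and 0.18 between LSK and bone EC; the genes at a mean of 1 or more were then 2 in BMC, 5 in Lin-, 10 in LSK, 20 and 15 in bone EC with and without irradiation, 14 and 9 in Vav1 DTX and Vav1 control EC, 13 in Apln+ EC and 6 in Esm1+ EC, since TPM values are larger than these FPKM values. The cause of the other shifts was not tested.

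Leaving out single libraries gave 1 to 2 calls between the Vav1 groups, 0 to 1 between Apln+ and diaphysis EC, 5 to 7 between 9Gy1D and Esm1+ EC (5 without 9Gy1D EC replicate 2) and 0 to 1 genes at 1 FPKM in BMC. Hoxa5 then ran from -0.35 to 0.06 between LSK and bone EC and Hoxa10 from -0.001 to 0.47 between bone EC and Lin-. Between Apln+ and diaphysis EC, Hoxa5 ran from -0.40 to 0.33, Hoxa7 from -0.79 to 0.03 and Hoxd8 from -0.42 to 0.29. No sign that replicate numbers pair the libraries was seen. Same-numbered libraries correlated at -0.219 to 0.332 in their deviations, and in no comparison did each library correlate best with its own number. With 3 libraries a group, this cannot exclude a pairing. With the replicate number as a block, 7 genes were called between 9Gy1D and Esm1+ EC and the other counts of calls did not change. LSK depth and its low-level background limit what can be said of genes near 1 FPKM there.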
